A study of Mus musculus with 6 samples.

Results

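The Hox genes of clusters A to D were followed through the accessible chromatin of 3 mouse cell lines. The 38 genes listed as members were taken from the mouse annotation by name, out of 22202 protein-coding genes on chromosomes 1 to 19 and X. They comprised 10 genes of Hoxa on chromosome 6, 10 of Hoxb on chromosome 11, 9 of Hoxc on chromosome 15 and 9 of Hoxd on chromosome 2.

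Accessibility was measured by ATAC-seq, in which a transposase cuts exposed DNA and inserts sequencing adapters. The mouse lines are named by their Pax6 state. Beta-TC3, an insulin-secreting pancreatic tumour line, is Pax6-HIGH. MV+, grown out from the lens epithelium of a wild-type C57BL6 mouse, is Pax6-ON. RAG, a kidney tumour line of BALB/c origin, is Pax6-OFF. MV+ and RAG thus differ in strain as well, and no strain is given for Beta-TC3. The cells were untreated, each line stands for its tissue by that line alone, and the lines differ in far more than Pax6. Each line had 2 biological replicates, which the authors pooled before calling peaks, so no value below has a replicate error and no difference between lines could be tested.

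Hox genes encode homeodomain transcription factors that set position along the head to tail axis. Their order along each cluster matches the order in which they are used along the body, with low-numbered (anterior) paralogue groups at the 3′ end and high-numbered (posterior) groups at the 5′ end. Silent clusters are typically held shut by Polycomb complexes, Trithorax proteins keep active ones on, and the adult kidney is known to keep Hox genes in use.

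Where 3 values stand in a row without names, they are for Pax6-HIGH, Pax6-ON and Pax6-OFF cells in that order. The 3 calls used 100254099, 130955836 and 102223606 fragments and gave 28024, 9821 and 14022 peaks. Pax6-ON cells thus had the most fragments and the fewest peaks. The weakest peak of each line held 25, 30 and 25 fragments at its summit, so sites below about that number could not be seen. Markers of the 3 tissues were only partly present as promoter peaks. Of 14 beta cell genes, 7, 3 and 1 had one, but Ins1, Ins2, Iapp and Pdx1 had none in any line. Of 12 lens genes, 3, 3 and 2 had one, and the crystallin genes Cryaa, Cryba1 and Cryga had none in any line, while Cryab had one in Pax6-OFF cells, with a pileup of 37. Of 11 renal genes found in the annotation, 0, 1 and 3 had one, with Pax2, Cdh16 and Emx2 in Pax6-OFF cells. Over all protein-coding genes 46%, 21.3% and 35.8% had one, so the beta cell counts in Pax6-HIGH and Pax6-ON cells were close to the background, and the lists do not establish the tissue of a line.

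Few Hox promoters had a peak. A promoter was counted when a peak overlapped the 1 kb on either side of any start of a protein-coding transcript. In Pax6-OFF cells 6 of 38 Hox genes had such a peak (15.8%), against 35.8% of all protein-coding genes. These were Hoxa3, Hoxa7, Hoxa10, Hoxa11, Hoxb9 and Hoxc6. The count fell to 2 with an equal number of peaks per line (Hoxb9 and Hoxc6, against 30.5% of all genes). The RefSeq promoters covered 22 Hox genes but not Hoxb9 or Hoxc6, and 3 of the 22 had a peak (Hoxa3, Hoxa10 and Hoxa11). They run from 250 bases before the start to 50 after it, and no share over all RefSeq promoters was computed. In Pax6-HIGH cells Hoxa7 alone had a promoter peak (2.63%), against 46% of all protein-coding genes, and it had none with 1 start per gene or with RefSeq promoters. In Pax6-ON cells 0 of 38 had a promoter peak, against 21.3% of all protein-coding genes. With 0 in Pax6-ON cells, no Hox promoter could have a peak in all 3 lines, while 3857 of the 22202 genes did. The promoters of 5 Hox genes (13.2%) had a peak in Pax6-OFF cells and in neither other line, against 2.51% of all protein-coding genes.

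**Figure D1:**
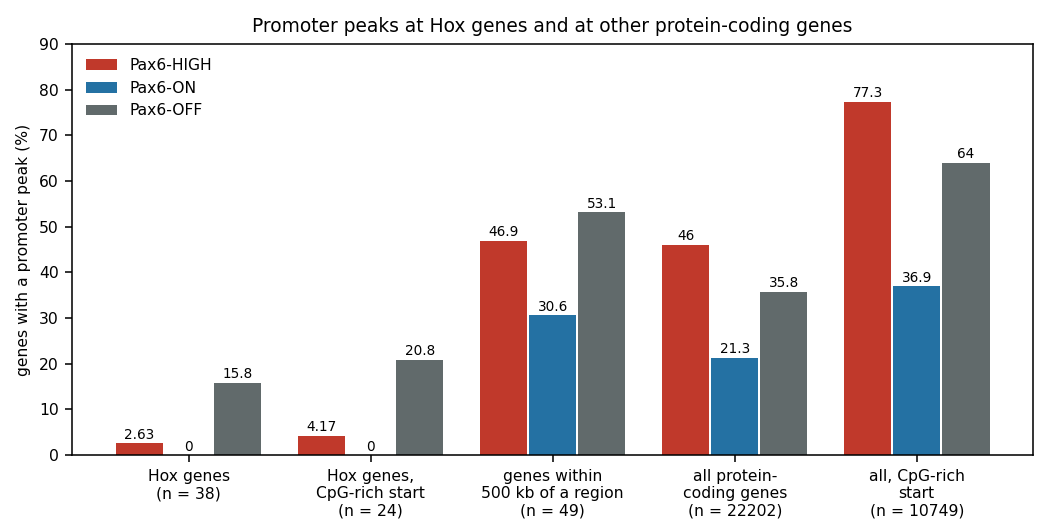
Share of genes with a promoter peak (y axis, percent) for the Hox genes and for 4 sets of protein-coding genes (x axis, with the number of genes), 1 bar for each cell line from its pooled call, with no error bar because the replicates were pooled. The Hox bars reach 2.63%, 0% and 15.8%, below the bars of all protein-coding genes in the same line.

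CpG-rich Hox genes were also mostly without a peak. A start was called CpG-rich when the 1 kb around it had at least 50% GC and an observed to expected CpG ratio of at least 0.6. By this measure 24 of the 38 Hox genes (63.2%) were CpG-rich, against 48.4% of all protein-coding genes. Among those 24 genes, 1, 0 and 5 had a promoter peak. Of the 10749 CpG-rich genes in the genome, 77.3%, 36.9% and 64% had a promoter peak. Hoxc6 was the only Hox gene with a promoter peak whose start was not CpG-rich.

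The sequences under the accessible sites are shown first for the Hoxa7 start, which was open in both Pax6-HIGH and Pax6-OFF cells, then for the other sites in or at Hox genes whose windows held no UTR, so that the make-up of each site can be read beside its values. All are read 5′ to 3′ on the strand of the Hox gene in NCBIM37 (the same assembly as mm9). Capitals mark matches on either strand to TGATNNAT (bound by Pbx-Hox pairs), TGACAG (bound by Meis and Pknox), the AP-1 element (TGA, any base, then the letters TCA), CCAAT (bound by NF-Y), GGGCGG (bound by Sp and KLF factors) and TAATTA (bound by homeodomains). A match on the other strand appears as its reverse complement. The Hoxa7 window is the 101 bases just upstream of its outermost start, chr6:52171854-52171954, and lies inside the peak of either line. The windows for the other sites are the 101 bases centred on the summit, at chr6:52161684-52161784 (Pax6-HIGH, in the Hoxa3 intron), chr6:52163350-52163450 (Pax6-OFF, Hoxa3), chr6:52167537-52167637 (Pax6-OFF, inner Hoxa7 start), chr11:96132492-96132592 (Pax6-OFF, Hoxb9) and chr15:102829710-102829810 (Pax6-OFF, Hoxc6).
Hoxa7 upstream: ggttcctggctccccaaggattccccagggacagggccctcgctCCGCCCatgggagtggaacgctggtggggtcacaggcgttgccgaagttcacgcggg
Hoxa3 intron: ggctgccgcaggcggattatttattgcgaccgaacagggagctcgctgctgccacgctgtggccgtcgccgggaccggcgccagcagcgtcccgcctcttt
Hoxa3 start: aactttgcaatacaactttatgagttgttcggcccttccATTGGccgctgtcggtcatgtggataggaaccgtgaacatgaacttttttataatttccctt
Hoxa7 inner start: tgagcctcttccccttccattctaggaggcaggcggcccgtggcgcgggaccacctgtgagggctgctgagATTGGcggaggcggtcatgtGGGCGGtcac
Hoxb9: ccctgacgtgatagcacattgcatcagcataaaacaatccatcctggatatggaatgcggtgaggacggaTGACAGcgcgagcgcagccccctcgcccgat
Hoxc6: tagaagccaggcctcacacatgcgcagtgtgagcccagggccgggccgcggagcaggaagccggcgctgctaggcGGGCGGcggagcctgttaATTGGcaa
The windows ranged from 41.6% GC at the Hoxa3 start to 68.3% at the Hoxa7 start, in the Hoxa3 intron and at Hoxc6.

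For contrast, the bases before the RefSeq start of Hoxd13, which had no peak in any line, are given at chr2:74506032-74506281. Hoxd13 acts in the digits and the genital bud. RefSeq gives its promoters on GRCm38.p6, and this one was placed on NCBIM37 by exact match.
Hoxd13: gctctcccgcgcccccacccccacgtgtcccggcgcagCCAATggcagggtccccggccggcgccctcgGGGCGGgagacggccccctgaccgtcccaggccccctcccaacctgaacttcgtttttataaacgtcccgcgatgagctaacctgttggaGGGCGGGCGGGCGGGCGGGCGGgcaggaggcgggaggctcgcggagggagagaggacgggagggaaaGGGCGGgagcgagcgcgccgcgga
These 250 bases held 74.4% GC, 31 CpG pairs and several GGGCGG runs, with a GC content above that of each open Hox window shown. It is an example from the GC-rich end, since the Hox promoters of RefSeq without a peak ranged from 39.7% GC at Hoxd4 to 81% at Hoxa13.

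Across the 4 clusters, counted as the span of the genes with 20 kb on either side, the 3 lines together had 11 peaks among 51867. Pax6-HIGH cells had 3, Pax6-ON cells 0 and Pax6-OFF cells 8. These regions total 645 kb, which gives 12.4 peaks per Mb for Pax6-OFF cells and 4.65 for Pax6-HIGH cells. The same lines, in this order, had 5.24 and 10.5 peaks per Mb over the genome, and 10.8 and 12.8 in the 500 kb beyond either side of each region. In Pax6-ON cells the genome held 3.66 peaks per Mb and the flanks 5.75. The pooled rates hide a split between clusters. In Hoxa the region was denser than its flanks in Pax6-OFF cells (43.3 against 6 peaks per Mb) and in Pax6-HIGH cells (21.7 against 17). In Hoxb, Hoxc and Hoxd every line was sparser than in its flanks, and for Pax6-OFF cells the rates were 4.67 against 15, 6.42 against 20 and 0 against 2. With an equal number of peaks per line the Pax6-OFF count fell from 8 to 3. The loss was in Hoxa, from 6 peaks to 1, while Hoxb and Hoxc kept 1 each. The higher density of Hoxa in this line thus depends on its weaker peaks, and the flank rates were not recomputed for that setting.

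**Figure D2:**
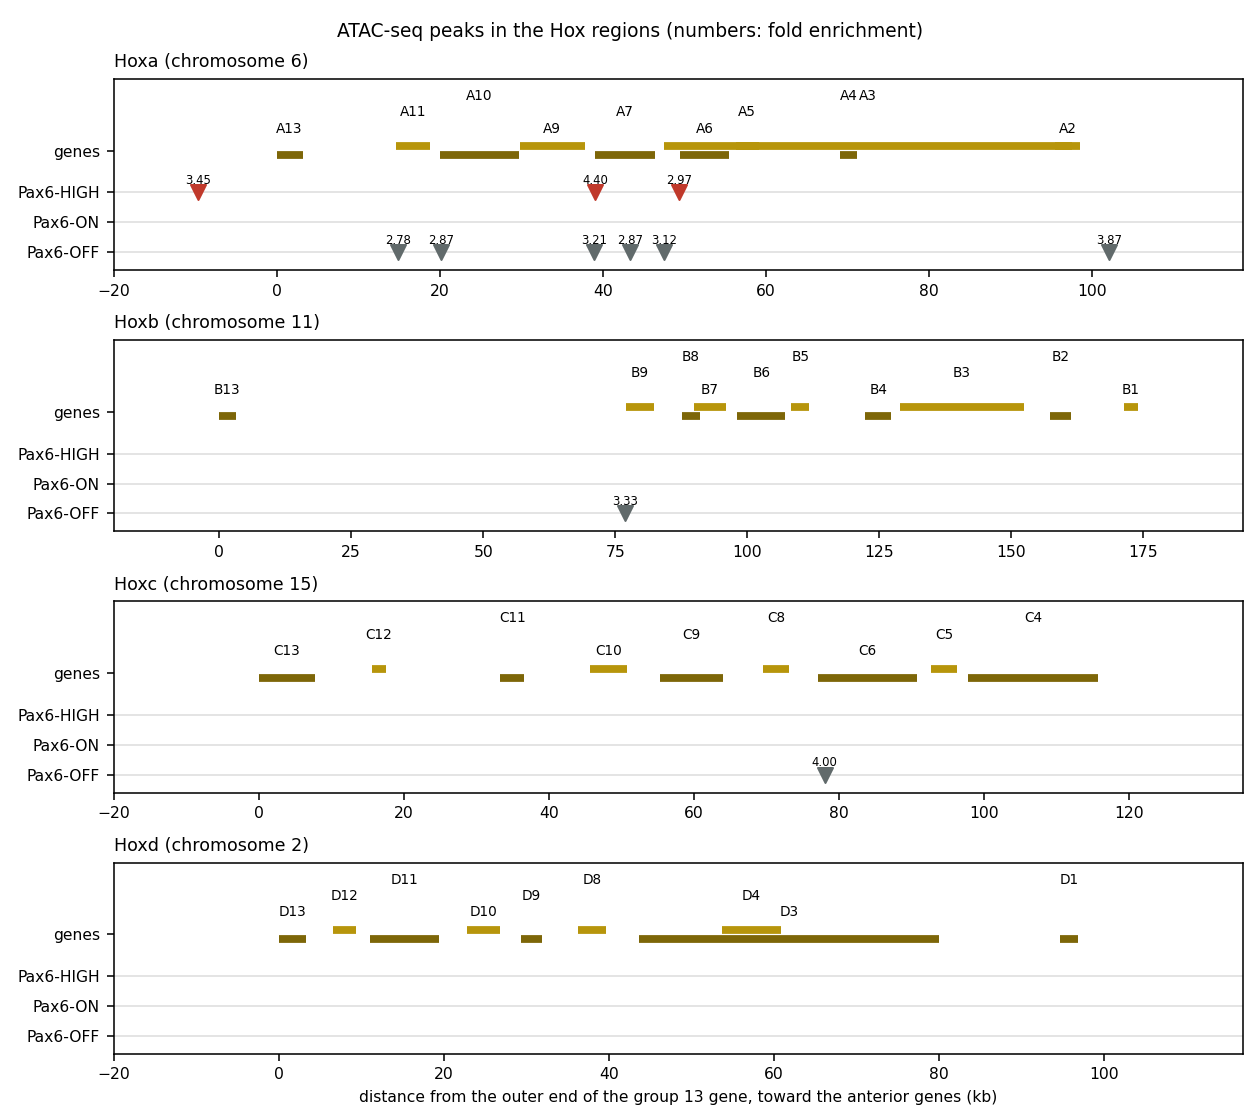
Positions of the 11 peaks (triangles, labelled with fold enrichment) in the 4 Hox regions, with the genes as bars and distance along the cluster in kb from the outer end of the group 13 gene. Pax6-HIGH peaks are in Hoxa only, Pax6-ON has none, and Pax6-OFF has 6 in Hoxa, 1 in Hoxb, 1 in Hoxc and 0 in Hoxd.

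The Hoxa region held 9 of the 11 peaks. Each peak is described by its pileup, the number of fragments over the summit with an exact 95% Poisson interval for counting error only, and by its fold enrichment, the pileup over the local background of the same call after adding 1 to each. Summits are the highest points of their peaks, so these pileups lean upward, amplified fragments are not independent molecules, and whether duplicates had been removed before the call is not known. Pileups are not scaled for depth.

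Hoxa7, a central gene used in the trunk, had the only site open in more than 1 line. In Pax6-HIGH cells the peak chr6:52171580-52172026 had a pileup of 73 (57.2 to 91.8) and a fold enrichment of 4.40, with its summit 5 bp inside the outermost start at 52171853. In Pax6-OFF cells the peak chr6:52171584-52172274 had a pileup of 37 (26.1 to 51) and a fold enrichment of 3.21, with its summit 4 bp inside the same start. The summits thus coincide almost to the base. Pax6-OFF cells had a further peak, chr6:52167307-52167657, at an inner Hoxa7 start (52167504), with a pileup of 33 (22.7 to 46.3) and a fold enrichment of 2.87. The start that RefSeq gives for Hoxa7, 52168572, had no peak within its promoter sequence in any line.

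The other 3 open Hoxa promoters were seen in Pax6-OFF cells. At Hoxa3, an anterior gene needed for pharyngeal organs, the peak chr6:52163231-52163474 had a pileup of 36 (25.2 to 49.8) and a fold enrichment of 3.12. Its summit was 62 bp upstream of the outermost of 5 coding starts and in an exon of the noncoding gene 2700086A05Rik. Along the cluster this start lies between the Hoxa6 and Hoxa7 genes, not beside the other anterior genes. At Hoxa10, which patterns the uterus and the limb, the peak chr6:52190561-52190858 had a pileup of 33 and a fold enrichment of 2.87, with its summit 211 bp inside the gene. At Hoxa11, needed with Hoxd11 for the kidney and the forearm, the peak chr6:52195765-52196117 had a pileup of 32 (21.9 to 45.2) and a fold enrichment of 2.78, the lowest of the Hox peaks. Its summit, at 52195826, lay 387 bp inside the coding start of Hoxa11 but close to the RefSeq start, 52195809. It was 32 bp upstream of the start of a noncoding Hoxa11 transcript. The summit was also in an intron of the antisense gene Hoxa11as, and ATAC-seq cannot tell which of the overlapping genes a site belongs to.

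A further Pax6-OFF peak lay 3056 bp past the 3′ end of Hoxa2, outside the member genes and in an exon of the noncoding Gm15051, with a pileup of 47 and a fold enrichment of 3.87. Both other Pax6-HIGH peaks were away from coding starts. The peak chr6:52161294-52161857, in an intron of Hoxa3, had a pileup of 58 (44 to 75) and a fold enrichment of 2.97. Its summit was 379 bp upstream of a noncoding Hoxa6 transcript and 1332 bp inside the nearest coding start of Hoxa3. The peak chr6:52220345-52220767 was intergenic, 9789 bp upstream of Hoxa13, with a pileup of 46 (33.7 to 61.4) and a fold enrichment of 3.45. Hoxa2, Hoxa4, Hoxa5, Hoxa6, Hoxa9 and Hoxa13 had no promoter peak in any line. In or around the cluster the longest peak-free stretch was 130549, 627447 and 58614 bp. On chromosome 6, 96%, 92.1% and 40.4% of the gaps between neighbouring peaks were shorter.

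In Hoxb, only Hoxb9 had a peak, in Pax6-OFF cells. The peak chr11:96132319-96132636 had a pileup of 41 (29.4 to 55.6) and a fold enrichment of 3.33, with its summit 229 bp upstream of the gene, which is known for shaping the rib cage. Hoxb1, Hoxb2, Hoxb3, Hoxb4, Hoxb5, Hoxb6, Hoxb7, Hoxb8 and Hoxb13 had none. In Pax6-HIGH and Pax6-ON cells the peak-free stretch around the cluster ran for 701353 and 701450 bp, from the Atp5g1 promoter on the posterior side to the Snx11 promoter on the anterior side. In Pax6-OFF cells the longest stretch was 142310 bp. Of the gaps between neighbouring peaks on chromosome 11, 98.2%, 90.6% and 74.4% were shorter.

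In Hoxc, only Hoxc6 had a peak, again in Pax6-OFF cells. The peak chr15:102829146-102829974 had a pileup of 72 (56.3 to 90.7) and a fold enrichment of 4.00, the strongest Hox site of that line. It overlapped the promoter window, but its summit lay 1072 bp inside the gene, in an intron. Hoxc4, Hoxc5, Hoxc8, Hoxc9, Hoxc10, Hoxc11, Hoxc12 and Hoxc13 had none. The longest peak-free stretch was 440556, 399226 and 163777 bp. On chromosome 15, 95.9%, 79.6% and 81.2% of the gaps between neighbouring peaks were shorter.

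In Hoxd, Hoxd1, Hoxd3, Hoxd4, Hoxd8, Hoxd9, Hoxd10, Hoxd11, Hoxd12 and Hoxd13 had no promoter peak, and the region had none elsewhere. The peak-free stretch was almost the same in the 3 lines, at 246166, 246381 and 246590 bp. On either side it ended at the promoters of Lnp and Mtx2, which were open in every line. Of the gaps between neighbouring peaks on chromosome 2, 92.7%, 69.4% and 78.7% were shorter. Stretches of this length were thus not rare in Pax6-ON and Pax6-OFF cells, and less common in Pax6-HIGH cells.

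**Figure D3:**
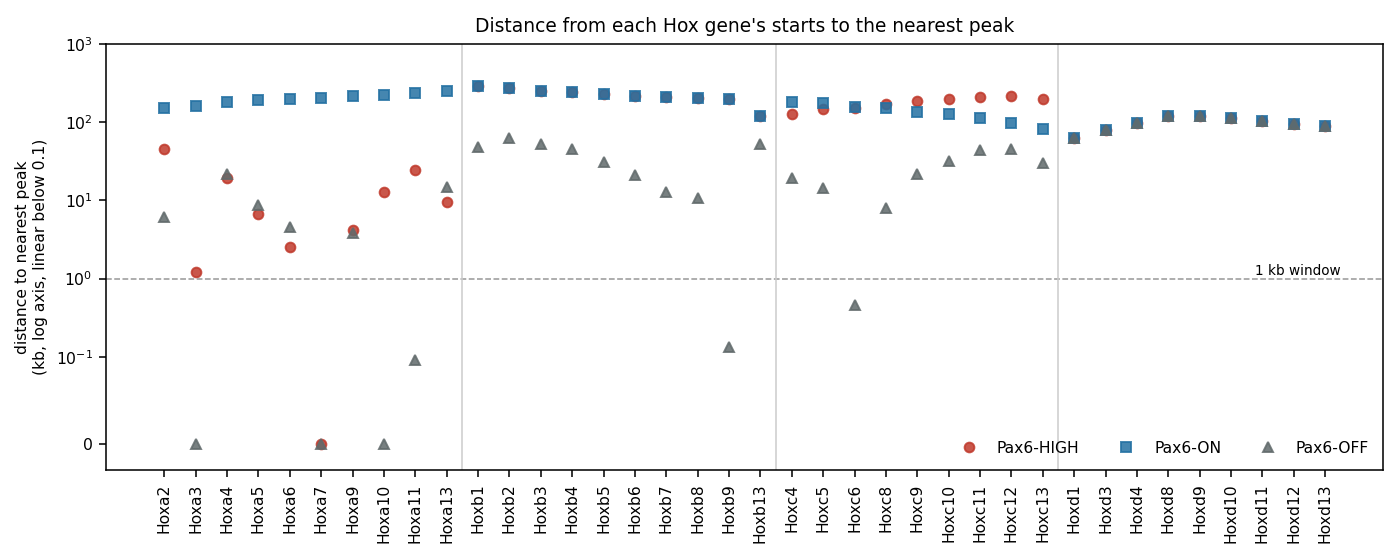
Distance from the coding starts of each of the 38 Hox genes (x axis, in cluster order) to the nearest peak of each line (y axis, kb, logarithmic above 0.1 kb and linear below), with a dashed line at the 1 kb window. Pax6-OFF points lie lower than Pax6-ON points in Hoxa, Hoxb and Hoxc, and the 3 lines coincide in Hoxd.

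The median distance from a Hox gene to its nearest peak was 119348, 166782 and 25650 bp. By cluster, the Pax6-OFF medians were 4193 bp in Hoxa, 38318 bp in Hoxb, 21683 bp in Hoxc and 98712 bp in Hoxd. The Pax6-HIGH median was 8090 bp in Hoxa but 221400 bp in Hoxb. Genes of a cluster share their nearest peaks, so the distances within a cluster are not independent of each other. By position in the body plan, the open promoters of Pax6-OFF cells were 1 of 11 anterior genes (groups 1 to 4), 2 of 11 central genes (groups 5 to 8) and 3 of 16 posterior genes (groups 9 to 13). Each of these shares was below the 35.8% of all protein-coding genes. The anterior gene was Hoxa3, whose open start lies between Hoxa6 and Hoxa7. With an equal number of peaks per line only Hoxb9 and Hoxc6 remained, so no trend along the body can be read from these counts.

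Most Hox sites had a fold enrichment below the median of their line. In Pax6-OFF cells 7 of the 8 peaks had a fold enrichment below the median of all peaks of the line (3.88), and Hoxc6 was the exception at percentile 54. In Pax6-HIGH cells 2 of 3 were below the median (3.81), and Hoxa7 was at percentile 61.9. All 3 were above 2.69, the median of Pax6-HIGH peaks on chromosome 6. On that chromosome the median of Pax6-OFF peaks was 4.05, above each of the 6 Hoxa peaks of the line. Set against promoter peaks only, Hoxa7 of Pax6-HIGH cells was at percentile 41, and the 7 promoter peaks of Pax6-OFF cells lay between percentile 5.78 (Hoxa11) and percentile 39.1 (Hoxc6). Their −log10 q-values ran from 4.53 at Hoxa11 to 19.4 at Hoxc6, and the Pax6-HIGH Hoxa7 peak reached 22.5.

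**Figure D4:**
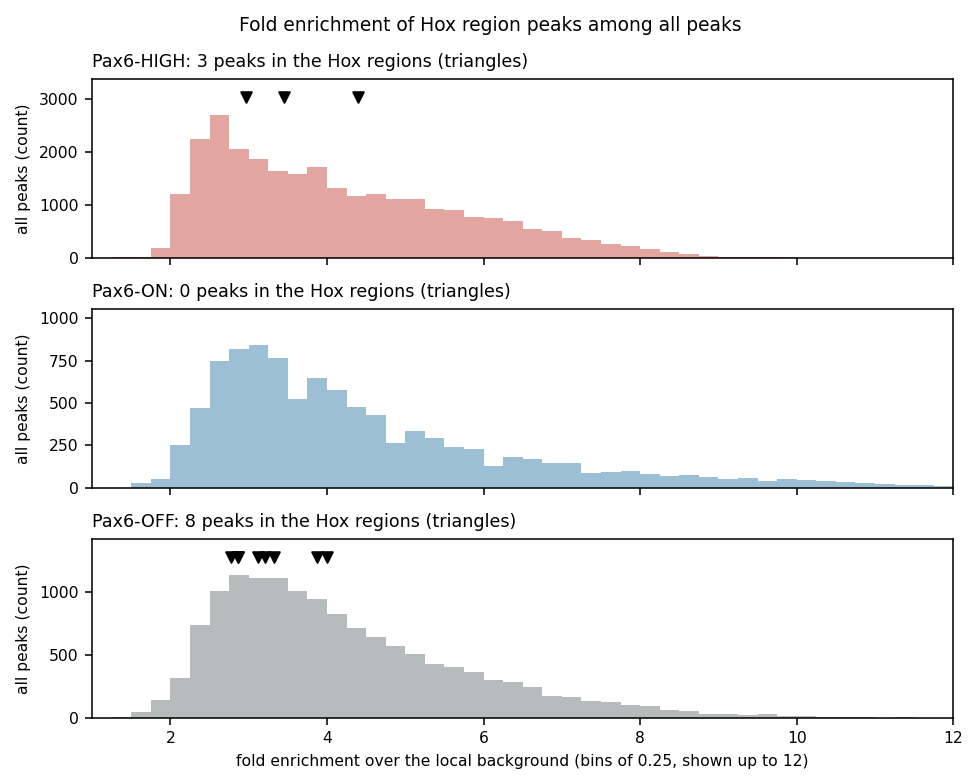
Histograms of the fold enrichment of all peaks in each line (x axis, bins of 0.25 shown up to 12, y axis number of peaks) with the Hox region peaks as triangles. The triangles lie between 2.97 and 4.40 for Pax6-HIGH and between 2.78 and 4.00 for Pax6-OFF, with none for Pax6-ON.

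The Hoxa7 start was the only shared site, which is 1 of 3 Hox peaks of Pax6-HIGH and 1 of 8 of Pax6-OFF cells. Over the genome, 33% of Pax6-HIGH peaks overlapped a Pax6-OFF peak and 66.5% of Pax6-OFF peaks overlapped a Pax6-HIGH peak. The count for Pax6-HIGH cells was thus near the genome share, while that for Pax6-OFF cells was below it. With Pax6-ON cells, which had no Hox peak, 0 of 3 Pax6-HIGH and 0 of 8 Pax6-OFF Hox peaks were shared. Over the genome, 19.8% and 39.3% of the peaks of these lines overlapped a Pax6-ON peak.

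Hoxa lies on chromosome 6, where Pax6-HIGH cells had 27.9 peaks per Mb against 10.5 over the genome. The median local background of its peaks there was 15.6 fragments, against 11.8 on the other autosomes. Their median fold enrichment was 2.69, against 3.99. The 21.7 peaks per Mb of the Hoxa region in Pax6-HIGH cells were thus below the rate of the chromosome and above that of the flanks. In Pax6-OFF cells chromosome 6 had 4.51 peaks per Mb, against 43.3 in the region. Of the 6 peaks behind the rate in the region, 1 remained with an equal number of peaks per line. Scaled for the fragments of each call, the pileup of the shared Hoxa7 summit in Pax6-HIGH cells was 2.01 times that in Pax6-OFF cells. The 4 sites shared by these lines in the 500 kb on either side had a median ratio of 2.89, with quartiles of 2.3 and 3.24. The other 512 shared sites of chromosome 6 had a median of 2.88, with quartiles of 1.85 and 3.79, and the 8255 shared sites of the other autosomes a median of 1.37. The Hoxa7 ratio thus lay between the quartiles of the chromosome and below those of the flanks. A difference in copy number of chromosome 6 and a difference in accessibility cannot be told apart in these calls.

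The genes next to the clusters were open far more often than the Hox genes. Of 49 protein-coding genes starting within 500 kb of a region, 23, 15 and 26 had a promoter peak (46.9%, 30.6% and 53.1%). Of these genes 15 were open in all 3 lines. Beside Hoxa, Skap2 had fold enrichments of 7.36, 3.56 and 6.37, and Hibadh, a valine catabolic enzyme, had 8.44, 3.56 and 7.81. Evx1, the homeobox gene next to Hoxa13, had no peak in any line. Beside Hoxb, the nearest genes Ttll6, Calcoco2 and Skap1 had none, and the promoters that bound the stretch in Pax6-HIGH and Pax6-ON cells were open in every line. Of these, Atp5g1, a subunit of ATP synthase, had 7.1, 4.22 and 7.85, and Snx11 had 6.18, 3.95 and 5.82. Beside Hoxc, Calcoco1 had 6.49, 3.76 and 6.3, Smug1, a DNA repair glycosylase, had none, and Cbx5, which encodes a heterochromatin protein, had 5.94, 5.8 and 5.64. Beside Hoxd, Lnp had 7.91, 8.83 and 8.18, and Mtx2, a mitochondrial import protein, had 6.33, 3.23 and 3.04. In each line, Pax6-ON cells included, promoters were called on both sides of each cluster.

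**Figure D5:**
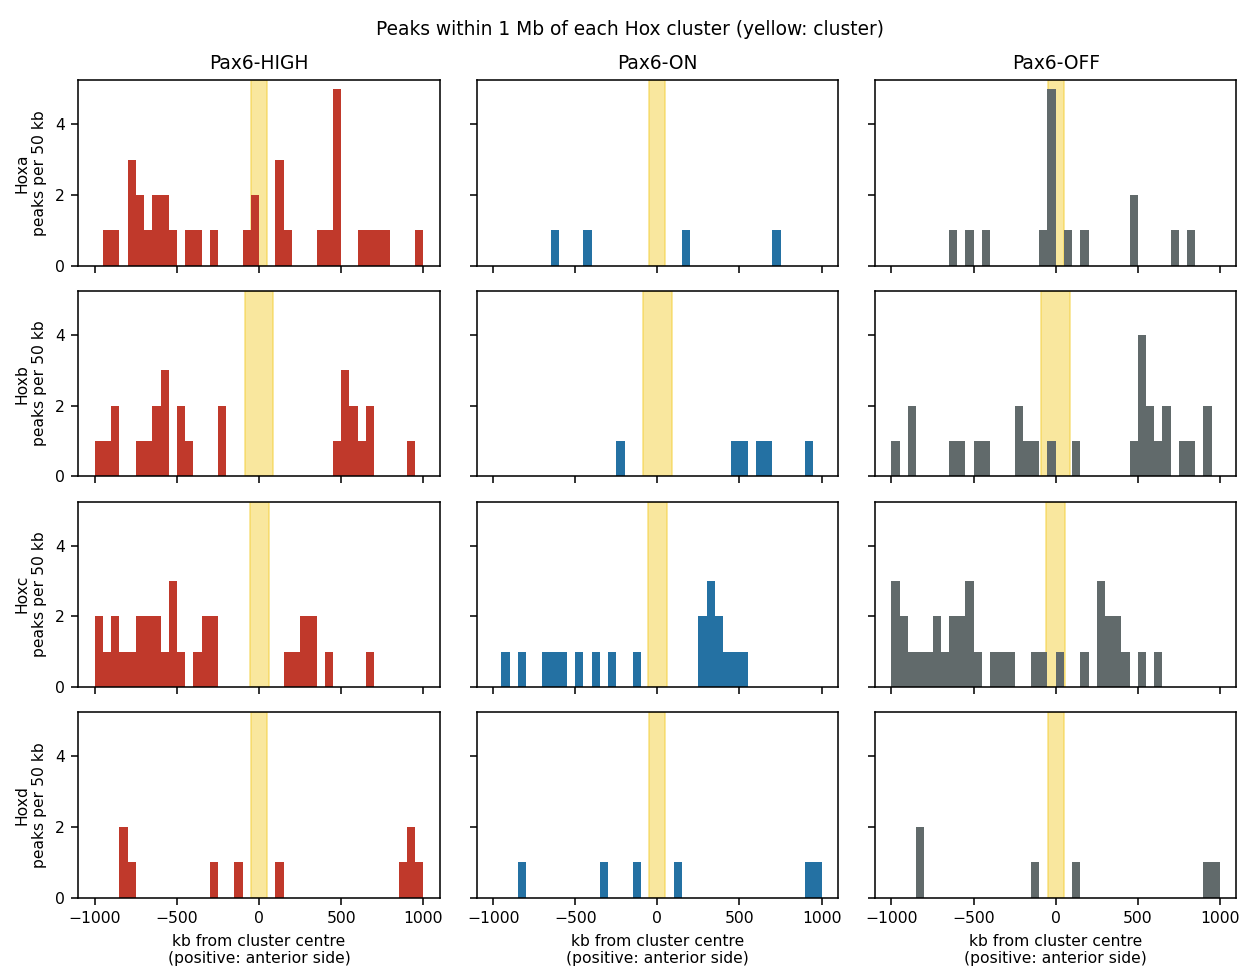
Number of peaks in 50 kb bins (y axis) within 1 Mb of the centre of each cluster (x axis, kb, positive on the anterior side), with clusters in rows, cell lines in columns and the cluster span in yellow. The Hoxd span is empty in all 3 lines, and in Hoxa the Pax6-OFF bin with the most peaks lies inside the span.

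Genes that act with or on Hox genes were counted the same way. Of the 8 TALE cofactors counted, homeodomain partners of Hox proteins, 8, 3 and 3 had a promoter peak. Meis1, Meis2 and Meis3 had a peak in Pax6-HIGH cells only, with fold enrichments of 2.79, 3.48 and 3.05. Pknox1 was open in each line, with fold enrichments of 6.34, 3.10 and 3.79.

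Of 17 Polycomb group genes, 14, 7 and 16 had a promoter peak. Eed, which helps the H3K27 methyltransferase bind its own mark, had fold enrichments of 4.65, 3.29 and 4.22. Cbx2, a chromodomain subunit, had 5.65 in Pax6-OFF cells and no peak in the other lines. Of 9 Trithorax group genes found, 8, 1 and 6 had a promoter peak. Mll1, the H3K4 methyltransferase that keeps Hox genes on, had no peak in Pax6-ON cells, 3.52 in the Pax6-HIGH line and 4.56 in the Pax6-OFF line. Of 9 retinoic acid receptor and Cdx genes, 4, 0 and 3 had a promoter peak, and Cdx1, Cdx2 and Cdx4, which switch on trunk Hox genes in the embryo, had none. Each of these counts can be read against the 46%, 21.3% and 35.8% of all protein-coding genes.

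The 300 bp around each summit were searched for the motifs listed above and for the CTCF consensus on both strands. TGATNNAT was found at 3 of the 8 Pax6-OFF sites (the inner Hoxa7 start, Hoxa11 and Hoxb9), and in 5.63% of all peaks of the line. CCAAT was found at 6 of 8, against 37.2%, and GGGCGG at 4 of 8, against 50.1%. TGACAG was found at 1 of 8, against 18.1%, and the AP-1 element, TAATTA and the CTCF consensus at 0 of 8, against 14.4%, 2.26% and 0.991%. Among the 3 Pax6-HIGH sites GGGCGG was found at 1, the Hoxa7 start, against 34.1%, and the other motifs at 0. In the 24 RefSeq promoters of 22 Hox genes, CCAAT was found in 15, against 37.4% of 32851 mouse promoters of the same length, TGATNNAT in 4, against 8.85%, and GGGCGG in 10, against 35.7%. TGACAG was found in 2, against 19.2%, TAATTA in 2, against 5.29%, and the AP-1 element in 1, against 7.81%. TGATNNAT and TAATTA can overlap each other, and so few sites allow no comparison beyond these counts.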

How the data were processed

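ATAC-seq libraries (50000 nuclei per reaction, 11 PCR cycles, 75 bp paired reads) were made in duplicate for 3 mouse cell lines. Nuclei were prepared with 0.2% NP40 for MV+ and 0.1% for the other lines, which cannot be told apart from the line. The submitters' processing notes name Trim Galore 0.4.1, Bowtie2 2.2.6, SAMtools 1.6, bedtools, MACS2 2.1.1 and mm9. Per the file headers, the authors pooled the 2 replicates in 1 MACS2 call per line, in paired-end mode with all duplicates in the input kept (input names mention a Picard duplicate step, and whether duplicates were removed there is not stated), no control library, a local background of 6250 bp and a q-value cut of 0.05. Whole fragments were piled up with no shift to the Tn5 cut site, which widens peaks. The deposited pileup is a signal (fragments at the summit, not scaled for depth). Fold enrichment, as deposited, divides pileup plus 1 by local background plus 1, a ratio within 1 call. The deposited −log10 q-values are against that background.

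Peaks on chromosomes 1 to 19 and X were joined to GENCODE M1 on NCBIM37 with Python 3.11.15, pandas 2.3.3, NumPy 2.4.6 and SciPy 1.17.1, counting any overlap of at least 1 bp. The overlap rules were tested on simulated data. The Hox peaks and flanking genes named in the report follow a fixed rule: every promoter peak of a Hox gene, the strongest peak of each cluster and line, and the nearest flanking genes. The remaining region peaks, and the examples from the regulator, marker and noncoding lists, were named after their values were seen. Hox genes and the other gene lists were chosen with earlier results of these data known. No test was made, because each line has 1 pooled call. Alternatives were other windows and margins, 1 start per gene, summits, a stricter q-value, equal numbers of peaks, 50% overlap and, chosen after seeing the data, other sets of starts. RefSeq promoters (22 of 38 genes) were given on GRCm38.p6 and placed by exact sequence match. Hotair, Hottip, Kmt2a, Kmt2b and Ksp were not found under those names. Mll1 and Mll2 were counted under theirs, and whether Mll2 stands for Kmt2b in this annotation was not checked. 1 listed gene is not reported here.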

Additional observations from a re-analysis of the deposited data

How the results depend on the processing

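For the 5 counts above 0, 20 of 29 alternative values stayed within 1.5 times the reported count. The other 4 counts involved Pax6-ON cells, were 0 and stayed 0, and most settings, being stricter, had no way to raise them. With an equal number of peaks per line (the 9821 with the smallest q-values), Hox promoters with a peak fell to 2 in Pax6-OFF cells (Hoxb9 and Hoxc6) against 30.5% of all genes, region peaks to 3 in Pax6-OFF and 1 in Pax6-HIGH cells, and shared sites to 0. In Pax6-HIGH cells the count of 1 promoter became 2 with a window of 2.5 kb (adding Hoxa3), 2 with noncoding starts (adding Hoxa6), 0 with 1 start per gene and 0 with RefSeq promoters. RefSeq promoters, which were not available for Hoxb9 and Hoxc6, gave 3 in Pax6-OFF cells (Hoxa3, Hoxa10 and Hoxa11). Both sets of starts were chosen after seeing the data.

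No paired analysis was possible because each cell line has 1 pooled call, and for the same reason no replicate was left out. The weakest called summits held 25 to 30 fragments, and sites below that were not detectable at this depth. Peak calls give no level of transcription.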

Other observations

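The ParaHox genes and the Evx genes, the closest homeobox relatives of the Hox clusters, had no promoter peak in any line. This covers Gsx1, Gsx2, Pdx1, Evx1 and Evx2. Pdx1 is a defining gene of beta cells, and it had none in Pax6-HIGH cells. Of 6 noncoding genes of the clusters found in the annotation, Hoxa11as had a promoter peak, in Pax6-OFF cells, and this is the Hoxa11 peak already described, with a pileup of 32. The microRNA genes Mir10a, Mir10b, Mir196a-1, Mir196a-2 and Mir196b had no peak in the window around their annotated starts. Whether those are the starts of their primary transcripts was not checked.

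Near Hoxc, 3 genes had a promoter peak in Pax6-OFF cells and in no other line. They were Amhr2, the receptor of anti-Müllerian hormone, with a fold enrichment of 3.37, Itga5, an integrin subunit, with 4.88, and Nfe2, a blood transcription factor, with 4.47. These are 6.12% of the 49 genes within 500 kb of a Hox region, against 2.51% of all protein-coding genes, and the 3 were chosen after their values were seen. Of the 49 genes, 0 had a promoter peak in Pax6-HIGH or Pax6-ON cells without one in Pax6-OFF cells, against 14.3% of all protein-coding genes. Neighbouring genes can share a peak, so the 49 are not independent of each other. Cbx5 and Hnrnpa1, for example, had the same values in each line, as did Map3k12 and Tarbp2.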
